A study of Mus musculus with 4 samples.

Results

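The cells described here are lymph node stromal cells with RNA of Ptprt, a receptor-type tyrosine phosphatase that takes part in cell adhesion. A cell was taken when at least 3 of 7 genes (Ptprt, Nlgn1, Cd24a, Sostdc1, Cacna1e, Kirrel3 and Caprin2) were detected in its raw unique molecular identifier (UMI) counts, with Ptprt among them. Cells with a UMI of A2m, Adamtsl2, Tnfsf11, Pi16, Pecam1, Ptprc or Cd79a, or more than 2 UMIs of Cxcl9, were left out. The gate took 2769 of 46638 cells that had at least 500 genes, at least 1000 UMIs and at most 10% mitochondrial UMIs. These are called Ptprt-gated cells below. Because measured values of these genes chose the cells, the levels of the gate genes are given as a description only.

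Droplet-based 3′ single-cell RNA sequencing had been run on 4 libraries of live CD45-negative, CD31-negative cells of C57BL/6 females aged 12 weeks, taken from inguinal, brachial and axillary lymph nodes. Control 1 came from Ccl19-Cre mice with an R26R-EYFP reporter, and Notch2 cKO 1 from Ccl19-Cre, Notch2 fl/fl mice with the same reporter. Each of these libraries of batch 1 pooled 6 mice that were not littermates. Control 2 came from Notch2 fl/fl mice without Cre, as its genotype label and the design text state, although its title names Ccl19-Cre. Notch2 cKO 2 came from Ccl19-Cre, Notch2 fl/fl mice, and each library of batch 2 pooled 3 littermates. Cre under the Ccl19 promoter acts only in cells that express Ccl19 or descend from such cells. Controls of the 2 batches thus differ in Cre, in the reporter and in the floxed allele. Each group has 2 libraries. Values below are in the order control 1, Notch2 cKO 1, control 2 and Notch2 cKO 2, as UMIs of a gene per 1000000 UMIs of the summed cells (CPM).

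Fibroblastic reticular cells build the fibre network of the lymph node and secrete the chemokines Ccl19 and Ccl21, which guide T cells and dendritic cells. Different reticular cells line the T-cell zone, the B-cell follicles, the medulla and vessels, and differ in the factors they supply. Notch2 is a receptor whose intracellular part is released when a neighbouring cell presents a ligand, and then acts with the DNA-binding protein RBPJ on target genes such as Hes1.

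The gated cells were very unequally spread, with 20, 129, 1188 and 1432 cells in the 4 libraries. Their summed UMIs were 61803, 463095, 9737602 and 12391671, and their median UMIs per cell 2974, 3371, 7662.5 and 8099.5. A gene without any UMI in the 20 cells of control 1 could still lie at up to 48.5 CPM (3 counts), so a fold change within batch 1 is not given for such genes. Cells among the highest doublet scores made up 15%, 9.30%, 16.8% and 10.3% of the gated cells, against 7.25%, 6.26%, 13.6% and 10.2% of all cells. Between 18 and 50 cell barcodes were shared by any pair of libraries, and 1 barcode was shared by gated cells, those of control 2 and Notch2 cKO 2.

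Sostdc1, a secreted antagonist of bone morphogenetic protein (BMP) and Wnt signals, was the gate gene met in most gated cells beside Ptprt in batch 1, at 70.0% of those of control 1 and 73.6% of those of Notch2 cKO 1. In batch 2 it was detected in 62.6% and 77.3% of them. Cd24a, a glycosylphosphatidylinositol-anchored surface glycoprotein, was detected in 60.0% and 65.1% of the gated cells of batch 1 and in 22.4% and 35.8% of those of batch 2. Kirrel3, an adhesion molecule of the immunoglobulin superfamily, went the other way, with 35.0% and 29.5% in batch 1 and 92.7% and 88.0% in batch 2. Nlgn1, a synaptic adhesion molecule, was in 0 of the 20 gated cells of control 1, in 3.88% of those of Notch2 cKO 1, and in 9.43% and 21.7% of those of batch 2, so most Ptprt-gated cells had no Nlgn1 UMI. Cacna1e, a pore-forming subunit of a voltage-gated calcium channel, was detected in 10.0%, 32.6%, 22.6% and 26.7% of the gated cells. Caprin2, an RNA-binding protein, was detected in 40.0%, 28.7%, 30.2% and 28.1%. The most common set was Ptprt, Sostdc1 and Kirrel3 together without the others, in 731 cells or 26.4% of the gated cells.

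The gate genes are long or short in the genome, and this moved with the batch. Ptprt (chr2:161521990-162661147, mm10) spans 1139.16 kb, Nlgn1 906 kb, Kirrel3 551 kb and Cacna1e 494 kb, whereas Cd24a spans 5.98 kb and Sostdc1 4.31 kb. Over all cells, Kirrel3 had 12.6 and 17.3 CPM in batch 1 against 389 and 376 CPM in batch 2, and Ptprt had 18.1 and 28.9 against 127 and 185 CPM. Such a shift was not limited to the gate genes. It was also seen in all 14096 comparison cells, defined below and taken here before matching. There, 268 genes that span over 300 kb had a median log2 ratio of batch 2 to batch 1 of 2.17 in controls. In Notch2 cKO it was 2.32, while 2486 genes under 20 kb had -0.25 in controls and -0.03 in Notch2 cKO. The plot of gate genes and gene span shows both patterns. By their headers the matrices of batch 1 come from Cell Ranger 5.0.1 and those of batch 2 from version 7.1.0, and for intronic reads the setting was not stated. Its part in who met the gate was not tested.

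**Figure D1:**
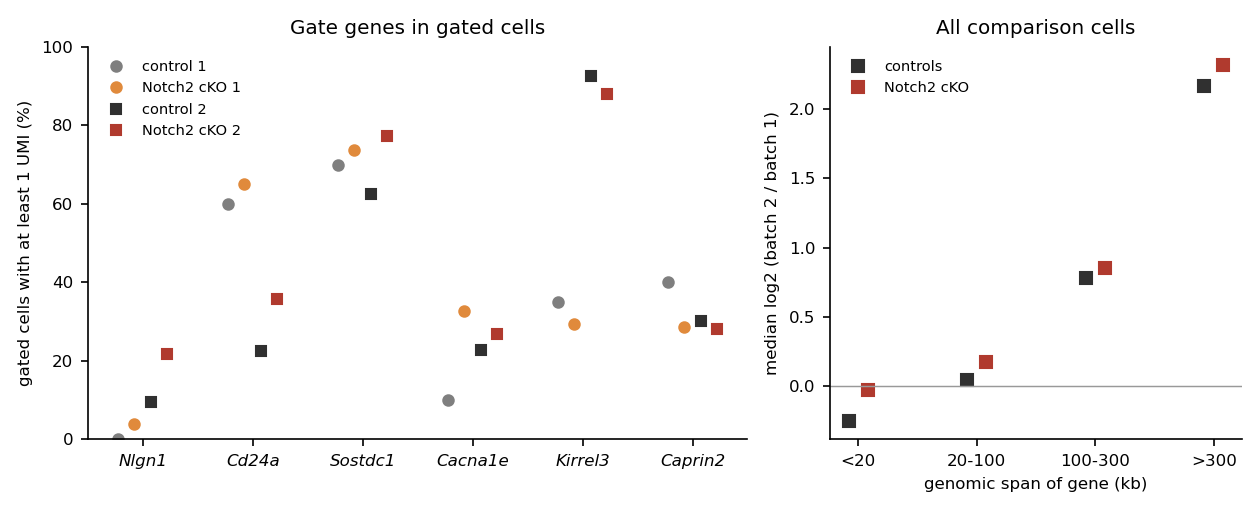
Left, percentage of Ptprt-gated cells of each library with at least 1 UMI of each gate gene other than Ptprt (circles batch 1, squares batch 2). Right, median log2 ratio of batch 2 to batch 1 in all comparison cells for genes grouped by genomic span in kb, within controls and within Notch2 cKO. Kirrel3 was detected in 92.7% and 88.0% of the gated cells of batch 2, and the median ratio rose from -0.25 and -0.03 under 20 kb to 2.17 and 2.32 over 300 kb.

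The gated cells made up a larger share of cells in the Notch2 cKO library of each batch. Their share was 0.221% in control 1 (20 of 9053, 95% Clopper-Pearson interval 0.135% to 0.341%) and 1.65% in Notch2 cKO 1 (129 of 7817, 1.38% to 1.96%), a ratio of 7.47. In batch 2 it was 6.98% in control 2 (1188 of 17014, 6.60% to 7.38%) and 11.2% in Notch2 cKO 2 (1432 of 12754, 10.7% to 11.8%), a ratio of 1.61. The intervals cover counting error only. Between the controls the batches differed by 31.6-fold, more than the genotypes did in either batch. Between the Notch2 cKO libraries they differed by 6.80-fold, less than the genotype ratio of 7.47 in batch 1 but more than the 1.61 in batch 2. An exact two-sided permutation test over the 4 libraries gave p = 0.667, where 0.333 is the smallest p that 2 against 2 allows.

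The sizes of these ratios depended on depth and on the gate. After every cell was thinned to 2000 UMIs, the shares were 0.0582% (3 of 5156 cells), 0.767%, 2.26% and 6.11%, with ratios of 13.2 and 2.71. Thinned to 4000 UMIs they were 0.832% (4 of 481 cells), 1.53%, 5.85% and 11.2%, with ratios of 1.83 and 1.92. With 2 of the 7 genes in place of 3, the ratios were 3.00 and 1.09, and with 4 they were 13.1 and 2.56. Without Kirrel3 in the gate 14, 106, 464 and 872 cells were left, with ratios of 8.77 and 2.51. Without the exclusion of cells with A2m or Adamtsl2 the gate took 20, 153, 1197 and 1780 cells, so this exclusion had left out cells of the Notch2 cKO libraries in the main, and the ratios were 8.86 and 1.98. Under each of these settings the Notch2 cKO library had the larger share in both batches, and the shares of batch 2 exceeded those of batch 1.

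**Figure D2:**
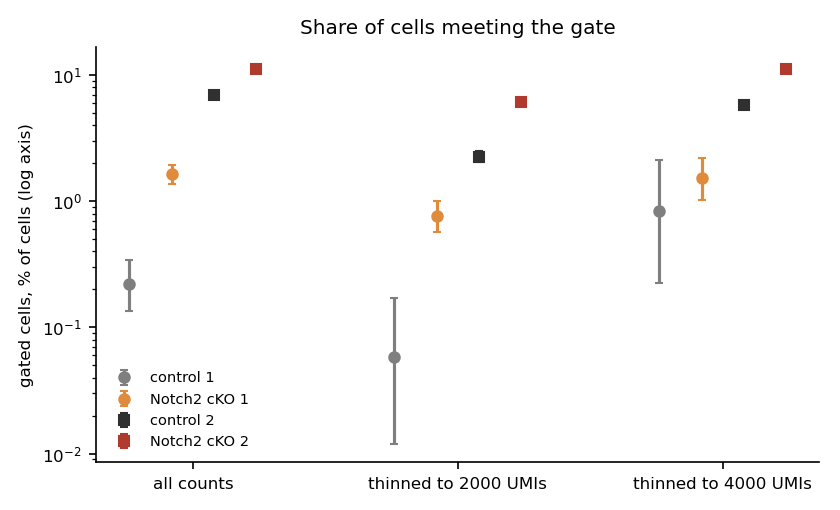
Ptprt-gated cells as a percentage of cells in each library on a log axis, from all counts and after thinning each cell to 2000 or 4000 UMIs, with 95% Clopper-Pearson intervals. The Notch2 cKO library lies above the control of its batch in each case, and both libraries of batch 2 lie above both of batch 1.

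The gated cells carried fibroblast RNA, with some pericyte and smooth muscle markers and little RNA of immune or endothelial cells. At least 2 of the 6 fibroblast markers (Pdgfra, Pdgfrb, Col1a1, Col1a2, Dcn and Pdpn) were detected in 100%, 100%, 99.4% and 99.4% of them. Summed B cell markers reached 0, 0, 0.513 and 0.565 CPM and dendritic cell markers 0, 0, 0.308 and 1.53 CPM. Summed myeloid markers had 32.4, 25.9, 15.1 and 18.1 CPM and blood endothelial markers 16.2, 4.32, 4.21 and 4.68 CPM. The gate itself had removed cells with Ptprc, Pecam1 or Cd79a. Pericyte markers (Rgs5, Kcnj8, Abcc9 and Cspg4) summed to 1181, 803, 948 and 908 CPM, and at least 2 of them were in 60.0%, 38.0%, 74.2% and 76.8% of the gated cells. Smooth muscle markers (Myh11, Cnn1, Acta2 and Des) summed to 1068, 726, 939 and 976 CPM, of which Des, an intermediate filament protein, held 1003, 637, 602 and 698 CPM. The word reticular in their working name is borne by Ccl19 (1618, 795, 1973 and 1766 CPM) and Ccl21a (5242, 5351, 5566 and 11381 CPM), the chemokines of the T-cell zone, which were present in every library.

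Comparison cells were taken in each library as cells with Pdgfra that met the same exclusions, had no Ptprt UMI and fewer than 3 gate genes, and were matched to the gated cells in number and in UMIs per cell. The gated cells lay only partly together in genes that the gate did not use. Among the 20 nearest neighbours of a gated cell in its own library, 1.25%, 5.85%, 19.5% and 31.2% on average were gated cells, against 0.5%, 1.78%, 6.34% and 8.33% around comparison cells. By their share of cells, 0.221%, 1.65%, 6.98% and 11.2% of neighbours would be gated cells. In control 1, 75% of the gated cells had no other gated cell among their neighbours. Most neighbours of a gated cell were therefore cells that had not met the gate in any of the libraries.

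The levels of other genes in gated and comparison cells are a description with no test, since the gate drew the contrast. Of 6443 genes at 20 CPM or more, 6 (0.0931%) were at least 2-fold higher in the gated cells of all 4 libraries and 21 (0.326%) at least 2-fold lower. At 1.5-fold the counts were 42 (0.652%) and 53 (0.823%). In both batch 2 libraries alone, which hold most of the cells, 24 (0.366%) and 52 (0.793%) of 6559 genes passed 2-fold.

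Among the genes higher in gated cells were an enzyme of prostaglandin synthesis, secreted factors and a Wnt receptor. The 15 named here and in the next paragraph were ranked by their smallest ratio over the 4 libraries. Of these only Btc, Stc1, Emb, Cldn1 and Fgf14 passed 2-fold in every library. Ptgs2, the inducible cyclooxygenase of prostaglandin synthesis (chr1:150100031-150108227), had 1311, 434, 799 and 175 CPM in gated cells and 291, 156, 386 and 90.9 CPM in comparison cells. Stc1, the secreted glycoprotein stanniocalcin (chr14:69029238-69041804), had 275, 88.5, 190 and 74.0 CPM against 129, 38.9, 66.3 and 27.1 CPM. Btc, a ligand of the epidermal growth factor receptor, had 80.9, 23.8, 41.6 and 19.6 CPM against 16.2, 10.8, 16.1 and 5.61 CPM. All of these were highest in the gated cells of control 1 and lower in each Notch2 cKO library than in the control of its batch. Rspo1, a secreted enhancer of Wnt signals, had 80.9, 101, 30.9 and 78.6 CPM against 32.4, 56.2, 15.7 and 35.5 CPM. Fzd10, a Wnt receptor, had 80.9, 47.5, 28.8 and 18.3 CPM against 32.4, 23.8, 14.49 and 7.65 CPM.

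Emb, a cell-surface glycoprotein of the immunoglobulin superfamily (chr13:117208536-117274415), had 146, 393, 186 and 282 CPM in gated cells and 64.7, 162, 45.8 and 70.0 CPM in comparison cells. Its level in gated cells lay above that in comparison cells in every library, by log2 2.02 and 2.01 in the 2 libraries of batch 2. Cyp2f2, a cytochrome P450 enzyme (chr7:27119909-27133660), had 194, 75.6, 143 and 42.4 CPM against 32.4, 38.9, 43.0 and 11.4 CPM. Cldn1, a tight junction protein, had 64.7, 86.4, 87.3 and 52.1 CPM against 16.2, 25.9, 43.1 and 17.9 CPM. Fgf14, a regulator of sodium channels and a gene of long span, had 16.2, 8.64, 633 and 749.5 CPM against 0, 2.16, 282 and 335 CPM, so its level rests on batch 2. The others named by the rule for higher genes were Acss3, Sowahc, Slc24a3, Lrrc17, Mapkapk3 and Sned1.

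Several matrix genes were lower in gated cells. Col14a1, a collagen of fibril surfaces, had 16.2, 19.4, 22.9 and 23.4 CPM in gated cells and 129, 108, 176 and 137 CPM in comparison cells. In control 1 the gated level was 1 UMI. Mgp, an inhibitor of calcification, had 0, 25.9, 48.2 and 118 CPM against 16.2, 197, 518 and 641 CPM. Lama2, a laminin chain, had 0, 6.48, 14.48 and 47.9 CPM against 16.2, 34.6, 64.1 and 148 CPM. Slc7a11, a cystine transporter, had 48.5, 45.3, 59.1 and 53.3 CPM against 275, 140, 272 and 178 CPM. Igfbp2, which binds insulin-like growth factors, had 16.2, 0, 39.5 and 7.75 CPM against 97.1, 13.0, 122 and 32.9 CPM. Col12a1, Sparcl1, Ccn2, Thbs4, Fat3, Ubd, Colq, Cd200 and Ddah1 were also lower by the same rule, and most of the lower genes named here had no UMI in the gated cells of control 1.

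**Figure D3:**
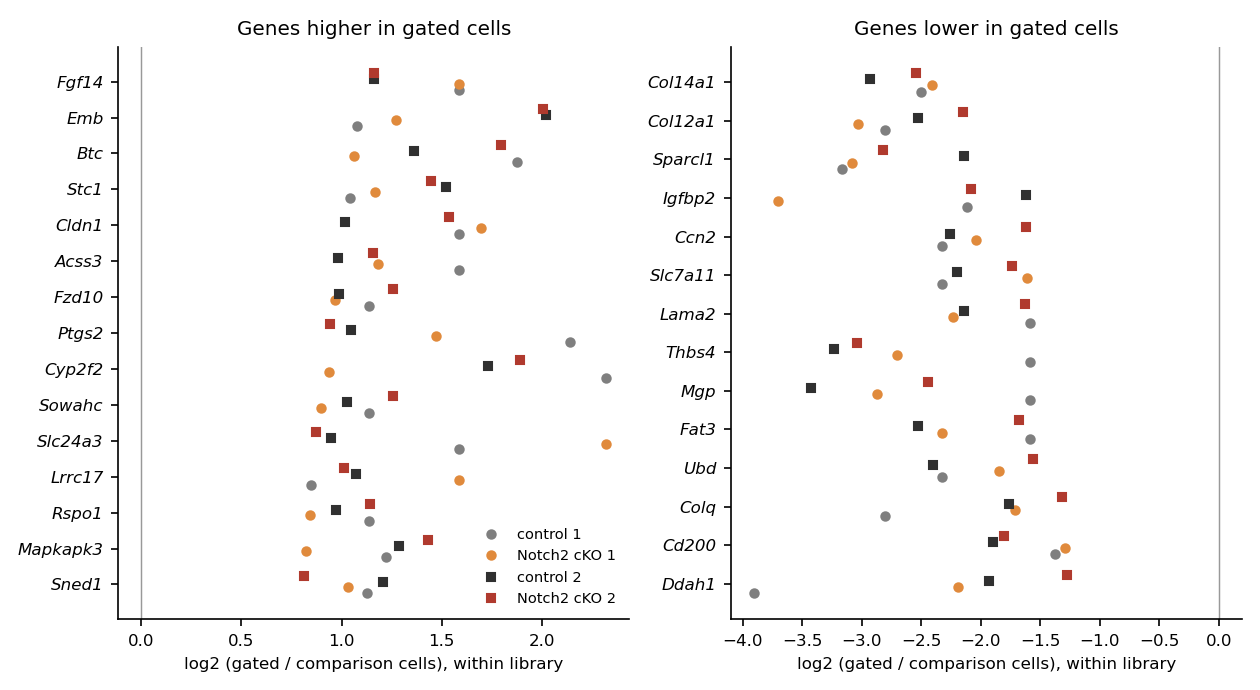
Log2 ratio of gated to comparison cells within each library for the genes named as higher (left) and as lower (right), 1 point per library, with a prior count that keeps ratios of 0 finite. Ratios of the higher genes lie above 0 and those of the lower genes below 0 in every library, as their selection required.

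By the sum of each marker list, medullary-type and fibroblast markers were higher in gated than in comparison cells of all 4 libraries. The sums of T-zone and perivascular-type markers were lower. Single members of the fibroblast and T-zone lists went both ways. Car3, Inmt, Cyp2f2 and Stc1 summed to 1084, 672, 764 and 670.0 CPM in gated cells and 291, 335, 341 and 362 CPM in comparison cells. Inmt, an enzyme that methylates amines, held the largest part, with 615, 497, 429 and 492 CPM against 129, 255, 230 and 309 CPM. T-zone markers summed to 7572, 6403, 8212 and 13415 CPM against 17683, 12312, 17264 and 18635 CPM, a sum held mostly by Ccl21a and Ccl19. Ccl19, Ccl21a and Vtn were each lower in gated cells of all 4 libraries. Ch25h was higher in all 4, with 32.4, 43.2, 42.4 and 33.5 CPM against 0, 38.9, 32.2 and 19.0 CPM, and Cyp26b1 had no common direction. At least 2 T-zone markers were detected in 90%, 79.8%, 97.1% and 93.5% of the gated cells, against 100%, 86.0%, 95.8% and 85.8% of the comparison cells. Perivascular-type markers (Stc2 and Il13ra2) had 16.2, 19.4, 19.5 and 13.0 CPM against 97.1, 41.0, 114 and 48.2 CPM. Follicular dendritic markers summed to 0, 0, 18.7 and 6.05 CPM against 0, 0, 103 and 55.3 CPM. Fibroblast markers summed to 11925, 11743, 9494 and 8974 CPM against 10112, 10260, 7690 and 8634 CPM. Dcn held most of this sum, with 9029, 7402, 6981 and 6292 CPM against 6504, 6048, 5196 and 5805 CPM. Pdgfrb was lower in gated cells of all 4 libraries, with 146, 104, 139 and 81.3 CPM against 162, 140, 172 and 131 CPM. Pdgfra, which chose the comparison cells, was lower too, and Col1a1, Col1a2 and Pdpn had no common direction. Pericyte markers in comparison cells summed to 841, 711, 1081 and 826 CPM, so gated cells had more in 3 of 4 libraries. Among these, Abcc9, a subunit of a potassium channel, had 356, 542, 503 and 471 CPM in gated cells and 178, 257, 323 and 283 CPM in comparison cells, whereas Rgs5, a regulator of G-protein signals, was lower in gated cells in 3 of 4 libraries. Marginal reticular markers were nearly all Cxcl13, the B-cell chemokine, which had 437, 361, 1155 and 1382 CPM against 48.5, 266, 1580 and 1151 CPM, with no common direction. At least 2 medullary-type markers were detected in 50%, 18.6%, 41.1% and 23.0% of the gated cells, against 15%, 7.75%, 16.3% and 7.47% of the comparison cells.

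In batch 2, cells with more gate genes had less Stc1, Cyp2f2 and Inmt of the medullary-type markers. In control 2, Stc1 had 218 CPM in the 792 gated cells with 3 gate genes, 156 CPM in the 324 with 4 and 88.5 CPM in the 72 with 5 or more. In Notch2 cKO 2 the values were 105, 67.6 and 29.2 CPM in 672, 490 and 270 cells. Cyp2f2 had 163, 117 and 71.9 CPM in control 2 and 58.9, 39.6 and 17.5 CPM in Notch2 cKO 2. Inmt had 454, 405 and 314 CPM and 599, 460.2 and 350.4 CPM. Ptgs2 and Emb showed no such order in control 2, with 779, 860.2 and 719 CPM and 185, 193 and 169 CPM. Mgp in Notch2 cKO 2 had 188, 91.1 and 33.3 CPM. Depth moved with these classes, with median UMIs of 7052, 8230 and 8861 in control 2 and 7200, 8453.5 and 10084.5 in Notch2 cKO 2, and its part was not tested. Batch 1 did not show the same order throughout. In Notch2 cKO 1, Stc1 had 110, 42.2 and 0 CPM in 95, 25 and 9 cells, but Cyp2f2 had 77.4, 52.7 and 123 CPM. In control 1, Stc1 had 207 CPM in 17 cells with 3 gate genes and 522 CPM in 3 cells with 4. Just outside the gate, cells with exactly 2 gate genes, Ptprt among them, had 201 CPM of Stc1 in control 2 and 86.4 CPM in Notch2 cKO 2. They had 147 and 70.4 CPM of Cyp2f2 and 449 and 655 CPM of Inmt. Ptgs2 had 766 and 199 CPM there and Emb 173 and 243 CPM. In batch 2 these levels lay near those of gated cells with 3 gate genes, so they were not particular to the gated cells. In batch 1 Ptgs2 had 444 and 199 CPM just outside, against 1673 and 503 CPM in gated cells with 3 gate genes.

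**Figure D4:**
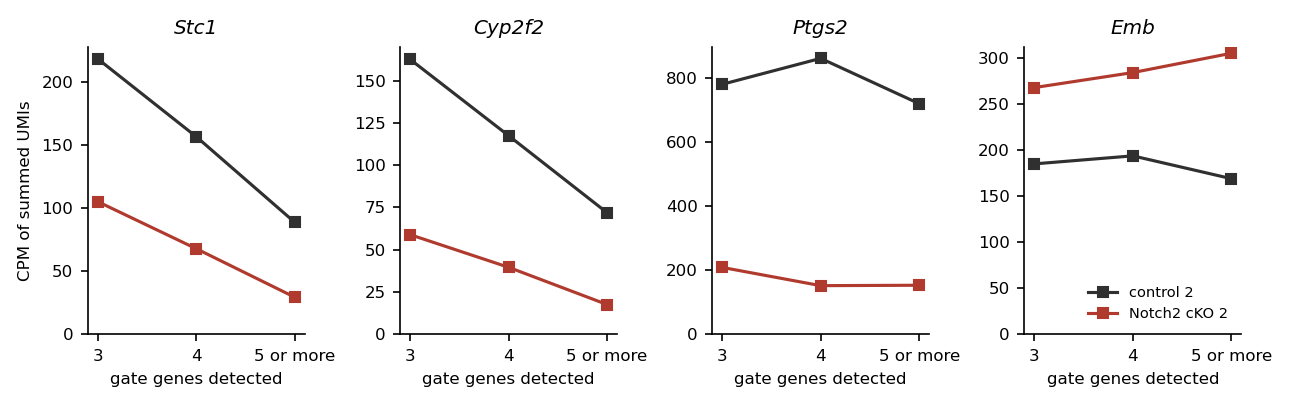
CPM of Stc1, Cyp2f2, Ptgs2 and Emb in Ptprt-gated cells of control 2 and Notch2 cKO 2, split by the number of gate genes detected (3, 4, or 5 or more), from UMIs summed over the cells of each class and with 1 library per line. Stc1 and Cyp2f2 were lower with more gate genes in both libraries, whereas Ptgs2 and Emb kept no common order.

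The effect of Notch2 loss within the gated cells was tested with edgeR's quasi-likelihood test on summed counts with batch as a term, and the count of genes is given first. Of 12410 genes, 417 (3.36%) passed at a Benjamini-Hochberg adjusted p under 0.05, 174 higher (1.4%) and 243 lower (1.96%) in Notch2 cKO. Of these, 146 of 6337 genes had 20 CPM or more (2.3%), 66 higher (1.04%) and 80 lower (1.26%). Of the 417 genes, 237 had 0 UMIs in the gated cells of control 1, so for these the direction in batch 1 could not be a fall and says nothing of its own. Counting these, 355 of the 417 had at most 3 UMIs there. On simulated counts this fit made more false calls than its threshold allows, most of them among genes under 20 CPM, so calls under 20 CPM are the least reliable. The matched comparison cells gave 463 calls, which included 235 of the 417.

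Those calls depend on the fit. Without the batch term 3 genes passed, and DESeq2 gave 14. Fits that leave out 1 library had to leave out the batch term as well, so the library and the term cannot be told apart in them. Without control 1 46 genes passed. Without control 2 no gene passed edgeR's test, with 278 higher and 64 lower at an unadjusted p under 0.05, and without Notch2 cKO 2 129 passed.

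Notch2 itself had 32.4, 17.3, 53.6 and 34.5 CPM in the gated cells, lower in the Notch2 cKO library of each batch but not past edgeR's test (log2 -0.76 ± 0.37 SE, adjusted p = 0.442). Which exons were floxed is not stated in the sources used here, so 3′ counts do not check the deletion. Notch3, another Notch receptor, had 64.7, 8.64, 115 and 34.9 CPM and fell (log2 -1.93 ± 0.38, adjusted p = 6.3e-05 by edgeR). Hes1, the transcriptional repressor induced by Notch, had 80.9, 75.6, 205 and 48.7 CPM and passed edgeR's test (log2 -1.62 ± 0.37, adjusted p = 0.000958), yet its fall was confined to batch 2, where it was log2 -2.19 against 0.14 in batch 1. These were the 2 of 13 tested Notch pathway genes that fell, and 0 rose, with a list median of log2 -0.76, where 1.96% of all genes tested were lower, 1.4% were higher and the median was 0.03. The list includes Notch2 itself, whose change equals that median. Within batches the list median was 0 in batch 1 and -0.64 in batch 2. A gene with 0 UMIs in control 1 could not fall in batch 1, which limits that median.

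Genes that rose included matrix and surface proteins. Cilp, a secreted cartilage matrix protein (chr9:65265180-65280605), had 32.4, 600.3, 32.7 and 399 CPM, so that both Notch2 cKO libraries lay far above both controls (log2 3.64 ± 0.41 SE, edgeR adjusted p = 1.51e-15). Aqp1, a water channel (chr6:55336432-55348555), had 48.5, 263, 22.8 and 232 CPM, again with no overlap of the groups (log2 3.13 ± 0.40, edgeR adjusted p = 6.51e-12). Smoc2, a matricellular calcium-binding protein, had 32.4, 114, 7.39 and 51.4 CPM. Pdlim3, a protein of the actin cytoskeleton, had 16.2, 125, 38.0 and 204 CPM. Ncam1, the neural cell adhesion molecule, had 0, 197, 27.4 and 155 CPM (log2 2.60 ± 0.38, edgeR adjusted p = 6.87e-09). Mmp16, a membrane-bound metalloproteinase, had 0, 28.1, 13.1 and 352 CPM, and its log2 change was 4.62, or 1.17 without both Notch2 cKO 2 and the batch term. Lingo2, Adamts15, Prkcb, Schip1, Ly6h and Inhbb completed the 12 genes named for a rise, with log2 changes from 2.48 to 4.40. Mmp16, Lingo2, Adamts15, Prkcb, Schip1, Ncam1 and Inhbb had 0 UMIs in control 1, so that their direction in batch 1 rests on an empty control.

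Among the genes that fell most were Ptn, Lepr and Apoc1. Ptn, the heparin-binding growth factor pleiotrophin (chr6:36714929-36810220), had 356, 41.0, 365 and 67.9 CPM (log2 -2.66 ± 0.36 SE, edgeR adjusted p = 1.68e-10). Lepr, the leptin receptor that marks stromal cells of several tissues (chr4:101717404-101815352), had 825, 155, 688 and 192 CPM (log2 -2.06 ± 0.36, edgeR adjusted p = 3.27e-06). Apoc1, an apolipoprotein, had 340, 28.1, 188 and 26.5 CPM (log2 -3.07 ± 0.36, edgeR adjusted p = 1.95e-14). In each of these the 2 controls lay above the 2 Notch2 cKO libraries without overlap. Pi15, Col6a6, Nhsl2, Gngt2, Ntng1 and Khdrbs3 were also named, with log2 changes between -2.29 and -1.89. In control 1, Col6a6, Nhsl2, Gngt2 and Khdrbs3 had only 2, 1, 3 and 2 UMIs, so their direction in batch 1 rests on few counts.

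The inflammatory list had 5 of 10 tested genes lower (Ccl11, Il11, Il6, Lif and Ptgs2) and 0 higher, with a median log2 of -1.15 against 0.03 over all genes tested, of which 1.96% were lower. Within batches the list median was 0.20 in batch 1 and -1.58 in batch 2, against 0.44 and 0.01 over all genes tested. The batch 1 median takes in genes with 0 UMIs in control 1, such as Lif and Il11, which could not fall there. It therefore cannot show whether the fall was confined to batch 2. Il6, Ptgs2 and Ccl11 were lower in the Notch2 cKO library of both batches, with log2 -1.89 for Il6 and -1.36 for Ptgs2 in batch 1. The cytokine Il6 (chr5:30013114-30019981) had 227, 51.8, 402 and 58.1 CPM in the gated cells (log2 -2.60 ± 0.37 SE, edgeR adjusted p = 2.78e-09). Ptgs2, with the values above, fell by 1.87 on the log2 scale (± 0.38, edgeR adjusted p = 9.56e-05). Ccl11, an eosinophil chemokine, had 760.5, 337, 493 and 171 CPM (log2 -1.34). Lif and Il11 had 0 UMIs in control 1, so a fall could be seen in batch 2 only. Lif went from 50.01 to 6.30 CPM there, and both genes lay under 20 CPM on average. In the comparison cells Il6 had 32.4, 90.7, 303 and 52.3 CPM, higher in the Notch2 cKO library of batch 1 and lower in that of batch 2, which the fitted log2 change of -1.67 joins. Ptgs2 was lower in both batches there (log2 -1.62), and the difference from the gated cells did not pass edgeR's test for either (adjusted p = 1 for both). The 12 immediate early and dissociation genes and 15 interferon response genes tested had 0 calls with edgeR in either direction.

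The bases before the start of Il6 are shown because Il6 fell in both batches and a Notch-linked motif overlaps a motif of inflammation there. The 250 bases (chr5:30012864-30013113, plus strand, RefSeq on GRCm38.p6, 5′ to 3′) have in capitals the match to GGGANTTTC, the start of a common NF-kB site, and to the RBPJ core TGGGAA, searched on both strands.
Il6: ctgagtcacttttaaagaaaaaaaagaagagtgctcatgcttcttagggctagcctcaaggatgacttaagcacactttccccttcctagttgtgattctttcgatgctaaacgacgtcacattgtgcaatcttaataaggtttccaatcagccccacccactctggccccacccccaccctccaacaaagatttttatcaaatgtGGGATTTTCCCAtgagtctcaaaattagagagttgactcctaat
The NF-kB match lies 44 to 36 bases before the start and the RBPJ core, on the opposite strand, 38 to 33 bases before it, so the 2 share letters. Of 32851 promoter windows of this length, 0.941% hold the NF-kB letters and 21.6% the RBPJ core. A match is a description of letters and not of binding.

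Genes of the major histocompatibility complex (MHC) class II pathway, which present peptides to CD4 T cells, rose together. Cd74, the invariant chain, had 210, 1123, 202 and 706 CPM in the gated cells (log2 2.04 ± 0.39 SE, edgeR adjusted p = 3.05e-05). H2-Aa, an alpha chain, had 48.5, 229, 27.7 and 97.6 CPM (log2 1.83 ± 0.36, edgeR adjusted p = 6.01e-05). H2-Eb1 had 64.7, 233, 29.6 and 105 CPM and H2-Ab1 97.1, 475, 106 and 260 CPM, both beta chains. These 4 of the 12 antigen presentation genes rose and 0 fell, with a list median of log2 0.54, where 1.4% of all genes tested were higher. B cell and dendritic cell markers in the same cells were at most 0.565 and 1.53 CPM, but the gate had removed cells with Ptprc or Cd79a, which partly set these values. Summed myeloid markers had 32.4, 25.9, 15.1 and 18.1 CPM. Aif1, a gene of myeloid cells, had 32.4, 38.9, 65.5 and 63.6 CPM. Igkc, an immunoglobulin chain, had 0, 10.8, 48.5 and 67.5 CPM. Free RNA from immune cells was not tested. The comparison cells gave nearly the same change, log2 1.84 for Cd74, and the difference did not pass edgeR's test (adjusted p = 1).

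The promoters of H2-Aa and H2-Eb1 are shown because both genes rose and class II promoters carry shared X and Y boxes. The 250 bases before each start (RefSeq, GRCm38.p6, 5′ to 3′ on the strand of the gene) are chr17:34287824-34288073, minus strand, and chr17:34305617-34305866, plus strand. Capitals mark matches on either strand to GCAACT, the start of the X box in these sequences, and to CTGATTGG, the Y box.
H2-Aa: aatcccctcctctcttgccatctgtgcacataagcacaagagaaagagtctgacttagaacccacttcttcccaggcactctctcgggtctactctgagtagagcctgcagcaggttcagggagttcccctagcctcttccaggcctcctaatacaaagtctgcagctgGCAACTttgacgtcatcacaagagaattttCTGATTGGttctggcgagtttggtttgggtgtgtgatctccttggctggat
H2-Eb1: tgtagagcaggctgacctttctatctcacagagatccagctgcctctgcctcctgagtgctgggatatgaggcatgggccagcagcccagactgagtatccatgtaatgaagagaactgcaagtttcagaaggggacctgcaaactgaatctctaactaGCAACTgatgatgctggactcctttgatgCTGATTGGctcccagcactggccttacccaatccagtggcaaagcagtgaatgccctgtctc
In H2-Aa the matches begin 81 and 51 bases before the start, and in H2-Eb1 91 and 62 bases before it. Both motifs together occur in 112 of 32851 windows (0.341%), GCAACT in 9.01% and CTGATTGG in 3.83%.

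**Figure D5:**
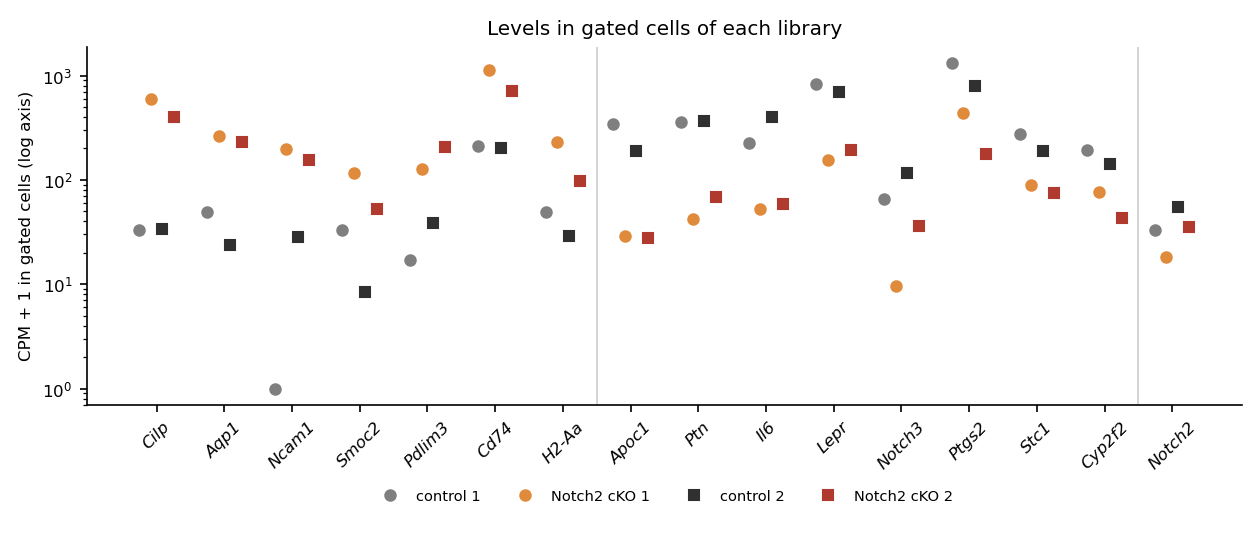
CPM plus 1 on a log axis in the Ptprt-gated cells of each library for 7 genes that rose, 8 that fell and Notch2 (circles batch 1, squares batch 2, 1 point per library). Both Notch2 cKO libraries lie above both controls for the rising genes and below them for the falling genes, and Ncam1 had 0 UMIs in control 1.

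Genes that were high in the gated cells did not share 1 direction. Stc1 fell by 1.46 on the log2 scale (± 0.34 SE, edgeR adjusted p = 0.00154) and Cyp2f2 by 1.65 (± 0.35, edgeR adjusted p = 0.000216), with groups that did not overlap. Btc and Slc24a3 also fell, by 1.26 and 1.32. In comparison cells the fitted log2 changes of Stc1, Cyp2f2, Btc and Slc24a3 were -1.46, -1.80, -1.65 and -1.27. The difference between the cell sets did not pass edgeR's test for any of them. In batch 1 comparison cells Cyp2f2 was not lower (log2 0.53) and Slc24a3 had no UMI. Emb (log2 0.86, adjusted p = 0.238) and Rspo1 (log2 1.10, adjusted p = 0.0638) did not pass edgeR's test. Of the medullary-type markers, Car3, a carbonic anhydrase, had 0, 10.8, 2.57 and 61.8 CPM and rose, by log2 4.29 in batch 2, while Inmt had log2 0.01 (adjusted p = 1). These 4 markers therefore gave 1 rise, 2 falls and 1 gene that did not pass.

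Over all genes tested 1.4% were higher and 1.96% lower, with a median log2 of 0.03, against which the counts of the other lists are given. Among BMP genes 3 of 24 were higher and 0 lower, with a list median of 0.04. Bmp3 had 16.2, 49.7, 26.5 and 77.6 CPM and Bmp4 48.5, 117, 31.6 and 78.1 CPM, with log2 changes of 1.45 and 1.23. The secreted regulator Bmper had 0, 19.4, 15.4 and 40.5 CPM, and its call was lost without the highest doublet scores. Of 23 Wnt genes 1 rose, the secreted Wnt antagonist Sfrp1, with 97.1, 300.2, 51.7 and 219 CPM (log2 1.93 ± 0.36 SE, edgeR adjusted p = 2.03e-05), and 0 fell, with a list median of -0.02. Adhesion molecules had 5 of 29 higher (Cdh13, Lingo2, Ncam1, Opcml and Tenm4) and 2 lower, with Ntng1 among these, and a list median of -0.17. Of 17 calcium channel and calcium handling genes 1 fell, the calcium pump Atp2b4, which had 0, 2.16, 15.2 and 6.62 CPM and so rested on batch 2.

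T-zone factors had 0 of 18 higher and 2 lower, against 1.4% and 1.96% over all genes tested, with a list median of log2 0.11. Cyp26b1, which degrades retinoic acid, had 307, 69.1, 130 and 45.7 CPM (log2 -1.73) and the adhesive protein Vtn 372, 145, 501 and 189 CPM (log2 -1.37). Ccl19 had log2 -0.53 (adjusted p = 0.857 by edgeR) and Ccl21a 0.59 (adjusted p = 0.933). B-zone and marginal factors had 1 of 7 higher, Ptgs1, and 2 lower, Il6 and Hamp2, with a list median of -0.20, and Ptgs1 and Hamp2 lay under 20 CPM. Single calls in lists this short cannot be told from those shares. Matrix genes had 3 of 27 higher (Col15a1, Lama2 and Lum) and 1 lower (Postn), with a list median of -0.06, and Col15a1 and Lama2 lay under 20 CPM. Contractile genes had 1 of 10 lower (Myh11) and 0 higher, with a list median of -0.03. The 6 cell cycle genes tested had 0 calls. A list of genes drawn from earlier results of these same libraries had 8 of 18 higher and 9 lower, which is no independent evidence of their direction.

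Whether the Notch2 effect differed between gated and comparison cells was tested as an interaction with the library as a block. Of 13329 genes, 57 passed edgeR's test (0.428%), 26 more positive (0.195%) and 31 more negative (0.233%) in gated cells. At 20 CPM or more 33 of 6443 passed (0.512%). With DESeq2 1 gene passed, without the library block 0 passed edgeR's test (19 and 16 at an unadjusted p under 0.05), and without control 2 or without Notch2 cKO 2 it was 0 as well (188 and 244, and 111 and 115).

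Aqp1 rose more in the gated cells, by 1.77 ± 0.22 on the log2 scale (SE, edgeR adjusted p = 2.23e-11). Comparison cells had 162, 415, 121 and 345 CPM, while the controls of the gated cells had 48.5 and 22.8 CPM. Lum, a small proteoglycan of collagen fibrils, had 210, 477, 124 and 272 CPM in gated cells and 275, 164, 139 and 185 CPM in comparison cells (difference 1.02 ± 0.20, edgeR adjusted p = 0.000477). Ccl19 had 1618, 795, 1973 and 1766 CPM in gated cells and 3430, 961, 4102 and 2115 CPM in comparison cells, a difference of 0.78 ± 0.16 on the log2 scale (edgeR adjusted p = 0.00075). In both cell sets the Notch2 cKO library had less Ccl19 than the control of its batch, and the Ccl19 difference between cell sets was larger in controls. Smoc2, Tacr1, Emp1 and Mgp also moved more positively in the gated cells.

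Other genes moved more negatively in the gated cells. Lepr had 550.1, 229, 409 and 167 CPM in the comparison cells, a smaller fall than in the gated cells (difference -0.73 ± 0.19 on the log2 scale, edgeR adjusted p = 0.0351). Epha3, an ephrin receptor, had 48.5, 8.64, 64.5 and 39.2 CPM in gated cells and 0, 13.0, 62.0 and 96.6 CPM in comparison cells (difference -1.36 ± 0.25, edgeR adjusted p = 8.36e-05). The activin antagonist Fst had 48.5, 41.0, 46.5 and 29.1 CPM against 32.4, 56.2, 46.5 and 75.3 CPM. Col6a5, a collagen VI chain, had 80.9, 34.6, 40.7 and 20.3 CPM against 0, 30.2, 14.0 and 23.6 CPM. For Epha3 and Col6a5, comparison cells of control 1 had 0 UMIs. Cxcl14, a chemokine named here after its values were seen, had 0, 13.0, 9.04 and 13.5 CPM in gated cells and 0, 77.8, 4.62 and 34.0 CPM in comparison cells. Its difference was -2.43 on the log2 scale (edgeR adjusted p = 4.92e-06).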

How the data were processed

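Raw UMI counts per gene and cell barcode were used as deposited, for 32285 genes in 4 libraries. Per the file headers the authors ran Cell Ranger 5.0.1 for batch 1, while batch 2 has 7.1.0. The submitters' processing notes name only 5.0.1, with mm10. Doublets were scored with Scrublet in scanpy 1.11.5, whose automatic threshold called 0 or 1 cells, so the gated cells were kept and the highest scores, at 0.8% per 1000 cells, were removed as an alternative. Counts of the gated and of the matched comparison cells were summed per library and fitted with batch as a term in edgeR 4.0.16 under R 4.3.3 (filterByExpr, TMM scaling, quasi-likelihood F test, adjusted p by Benjamini-Hochberg under 0.05), leaving 1 residual degree of freedom (2 for the interaction). DESeq2 1.42.0 was an alternative. The 15 genes used by the gate were left out of counts, and none of these has a test. The labels state that the replicate number is the batch, and deviations of same-batch libraries correlated at 0.293 over 12418 genes in gated cells. Libraries pool mice and are the replicates, so p-values can refer only to spread between pools and not between mice. With so few residual degrees of freedom, edgeR borrows most of that spread across genes and hardly measures it gene by gene. Very small adjusted p-values rest on this borrowing.

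Named genes were, per direction, the 15 with the largest smallest ratio over the 4 libraries for the cell sets and, for each test, the 12 with the largest log2 fold change among those past it with 1 sign in both batches and at least 20 CPM, up to 4 genes per list with the lowest p, and Notch2. Predicted, ribosomal, mitochondrial and haemoglobin genes were passed over, and some genes that met the rule are not reported here. The gated cells, the lists and the comparison were chosen with earlier results of these data known. The summed markers were 21 lists, of which 12 are given. The others (adventitial, Mgp Fbln1, Fabp4 Col15a1 and Ccn3 fibroblast, Schwann, lymphatic endothelial, T cell, epithelial and proliferation markers) each summed to at most 156 CPM in gated cells. Alternatives were other scaling, filters, gates, doublet removal and leaving out libraries. A gate without Kirrel3, and both batch 2 libraries alone, were chosen after seeing the data. The tests were checked on simulated data, where the interaction made no false call and the fit of the Notch2 effect made more than its threshold allows, most of them under 20 CPM. Genes were looked up by identifier in the mm10 annotation.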

Additional observations from a re-analysis of the deposited data

Results flagged for a closer look

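Of the 57 genes whose effect of Notch2 loss differed, the 21 that the rule for named genes took are given. In these the effect of Notch2 loss differed between the Ptprt-gated cells and the comparison cells by edgeR's quasi-likelihood test of the interaction, and the values are differences of log2 fold changes, gated minus comparison cells. It was more positive in gated cells for Aqp1 (1.77), Igkc (1.48), Tenm4 (1.43), Smoc2 (1.26), Tacr1 (1.25), Aif1 (1.20), Emp1 (1.15), Pla2g5 (1.14), Lum (1.02), Stmn2 (1.00), Stau2 (0.99) and Mgp (0.92). The difference was more negative for Col6a5 (-1.75), Frmd5 (-1.66), Tmeff2 (-1.59), Epha3 (-1.36), Fst (-1.27), Prkg1 (-0.97), Dmd (-0.94), Ogn (-0.83) and Lepr (-0.73). Igkc, an immunoglobulin chain, had 0, 10.8, 48.5 and 67.5 CPM in gated cells and 0, 8.64, 21.2 and 9.92 CPM in comparison cells. B cell markers reached at most 0.565 CPM in gated cells, from which the gate had removed cells with Ptprc or Cd79a. Without the highest doublet scores the Igkc difference was 0.72 and did not pass (adjusted p = 1), and against all comparison cells without matching it was 0.70 (adjusted p = 0.416). Aif1, a gene of myeloid cells, had 32.4, 38.9, 65.5 and 63.6 CPM in gated cells and 16.2, 8.64, 67.6 and 29.4 CPM in comparison cells, beside summed myeloid markers of 15.1 to 32.4 CPM in gated cells. Frmd5 had 0 UMIs in the gated cells of both libraries of batch 1, and its difference rests on 43.6 and 1.45 CPM in batch 2 against 190.1 and 20.2 CPM in comparison cells.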

How the results depend on the processing

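Gated cells of control 1 numbered 20, which limits every value of batch 1. The count of 417 genes past the test for Notch2 cKO became 3 with no replicate block, that is without the batch that pairs the libraries, 14 with DESeq2, 229 with at least 4 of 7 gate genes and 249 without Kirrel3. Leaving out 1 library, and the batch term with it, gave 0 to 604. Without TMM, 178 of 328 calls were higher in place of 174 of 417. The 57 interaction calls became 0 with no replicate block, 1 with DESeq2, 13 with at least 4 gate genes and 32 without Kirrel3, and 0 to 70 when 1 library was left out. The 27 genes at 2-fold in gated against comparison cells became 95 at 1.5-fold, 76 in both batch 2 libraries and 29 to 42 with 1 library left out. The ratio of Notch2 cKO to control shares, 7.47 in batch 1, became 13.2 and 1.83 at 2000 and 4000 UMIs, 3.00 with 2 gate genes and 13.1 with 4. In batch 2 the ratio of 1.61 became 2.71 at 2000 UMIs, 2.56 with 4 gate genes and 2.51 without Kirrel3. Reversed values were Myh11 0.37 without control 2 and the batch term (-3.38 to 0.37 over libraries left out), and, for the interaction, Frmd5 0.20 without the A2m and Adamtsl2 exclusion, Mgp -0.11 without Kirrel3, and Igkc -0.88, Ogn 0.18 and Tenm4 -0.10 without Notch2 cKO 2. With 1 library left out the range was -0.88 to 2.71 for Igkc, -12.39 to 0.18 for Ogn and -0.10 to 9.60 for Tenm4. The cause of these changes was not tested. Other scaling, no filter on low counts, the stricter cell filter and removal of high doublet scores kept each count within 1.5 times. The genes behind the counts changed more. Without high doublet scores 266 of the 417, 40 of the 57 and 17 of the 27 genes were still called. Bmper, Lum and Ptgs1 then no longer passed for Notch2 cKO, nor Igkc and Dmd for the interaction.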
